A study of Mus musculus with 18 samples.

Results

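The comparison described here is that of mouse ovarian follicles cultured for 12 h with recombinant anti-Müllerian hormone (AMH) at 200 ng/mL against follicles of the same pools cultured for 12 h with vehicle. Its members are the 6 arrays of those 2 groups, 3 per group, of the 18 arrays in the series, and the 6 arrays of the same dose and its vehicle at 24 h served as the only outside comparison. Follicles from preantral to small antral stages came from the ovaries of C57BL/6Ntac females aged 6 to 8 weeks, and no transgene or mutation is named for them. Each pool held the follicles of 7 mice and was divided over the doses, so arrays with the same replicate number share a pool. Follicles of both groups were kept in single drops of medium with FSH at 80 IU/L and LH at 10 IU/L, so the vehicle follicles were gonadotropin-treated too. The titles and source names of the AMH arrays give 12 h, while their description label gives 24 h, and the titles were followed. RNA was amplified from 5 ng of total RNA and hybridised to an Affymetrix array of 45101 probe sets. The values are the deposited signal intensities, and differences are of log2(signal + 16), which understates the change of dim probe sets.

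AMH is a hormone of the TGF-beta family made by the granulosa cells of growing follicles, and it is known for restraining the recruitment of primordial follicles and the response of growing follicles to FSH. It binds its own type II receptor, AMHR2, which pairs with type I receptors shared with the BMPs; these phosphorylate SMAD1, SMAD5 and SMAD9, which enter the nucleus with SMAD4. Well-known targets of that branch are the Id genes, whose products block basic helix-loop-helix factors, and the inhibitory SMADs, which feed back on the receptors.

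The third pool stood apart from the others in both groups. The AMH array of replicate 3 had a median correlation of 0.925 with the other 5 arrays, against 0.964 to 0.979 for those. Its mean poly-A spike signal was 4846, against 557 to 1334, its mean hybridisation control signal 3879, against 2002 to 2466, and its median signal 18.0, against 23.1 to 30.6. Within the pools, the SD of the AMH minus vehicle differences over the 22518 tested probe sets was 0.40 in replicate 1, 0.33 in replicate 2 and 0.85 in replicate 3, and 2.51%, 1.19% and 22.8% of probe sets differed by more than 1 log2 unit. The values of replicate 3 are therefore given beside the means in what follows.

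Markers of cell types also set that pool apart. The signals of the 20 tested oocyte markers summed to between 9024 and 17032 on the arrays of replicates 1 and 2 but to 1234 with vehicle and 1682 with AMH in replicate 3. Gdf9, the oocyte-secreted growth factor, had signals of 527, 771 and 33.1 in vehicle and 685, 934 and 49.8 with AMH, in the order of replicates 1, 2 and 3, which is the order used for all signals and differences in what follows. The sum of 16 endothelial markers was 8798 on the vehicle array of replicate 3 and 2943 on its AMH array, against 2360 to 3991 on the other 4 arrays. The sum of 16 ovarian surface epithelium markers was 7974 with vehicle and 21149 with AMH in replicate 3, and 5105 to 9326 on the other 4. In whole follicles, fewer cells of a type and less RNA per cell cannot be told apart. The granulosa cell markers summed to 7575 and 8494 in replicate 3 and to 9002 to 11808 elsewhere, and Amhr2, which marks granulosa cells, ranged from 446 to 1451 over the 6 arrays.

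No probe set passed an adjusted p of 0.05 between AMH and vehicle. In limma's test with the pool as a block and Benjamini-Hochberg adjustment, 0 of 22518 probe sets (0.0%) were called and the smallest adjusted p was 0.897. At an unadjusted p under 0.05 there were 469 (2.08%), fewer than the 1125.9 that chance alone gives on average. The median standard error of a difference was 0.29. The 0 calls say that no difference was detectable with 3 pools at this spread, and every gene difference below is therefore a description of these arrays with its error. Estimated array weights gave 928 calls, 321 higher and 607 lower. With the pool as a block, both arrays of a pool got the same weight, so the weights do not measure the quality of single arrays. They were 4.86 for replicate 1, 0.836 for replicate 2 and 0.247 for replicate 3, so these calls rest mostly on 1 pool. Leaving out replicate 2 gave 121 calls, of which 28 went the same way in the pool left out. Leaving out replicate 1 gave 6, of which 5 did. Several of those 6 are probe sets of Kctd14, and all had far larger differences in replicate 3 than in replicate 2. Kctd14 had -4.46 in replicate 3 and -0.11 in replicate 2 at 1 probe set, and Rfpl4 had 4.76 and -0.35. Each of these leave-out fits has 1 residual degree of freedom and takes its spread from all probe sets together. Without replicate 3 there were 0 calls.

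The differences of the pools correlated weakly or negatively. The differences of replicate 1 had a Pearson correlation across probe sets of -0.12 with those of replicate 2 and of 0.16 with those of replicate 3, and those of replicates 2 and 3 correlated at -0.19; probe sets are not independent, and each difference holds both arrays' noise. Among 11232 genes, each represented by its brightest tested probe set, 9.5% were higher with AMH in 3 of 3 pools and 13.1% lower. Groups that did not overlap, with all 3 AMH signals above or below all 3 vehicle signals, made up 1.22% of genes in the higher and 2.34% in the lower direction. On average over the pools 42.7% of genes were higher and 57.3% lower; 51.4% were higher in replicate 1, 51.1% in replicate 2 and 40.1% in replicate 3.

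**Figure D1:**
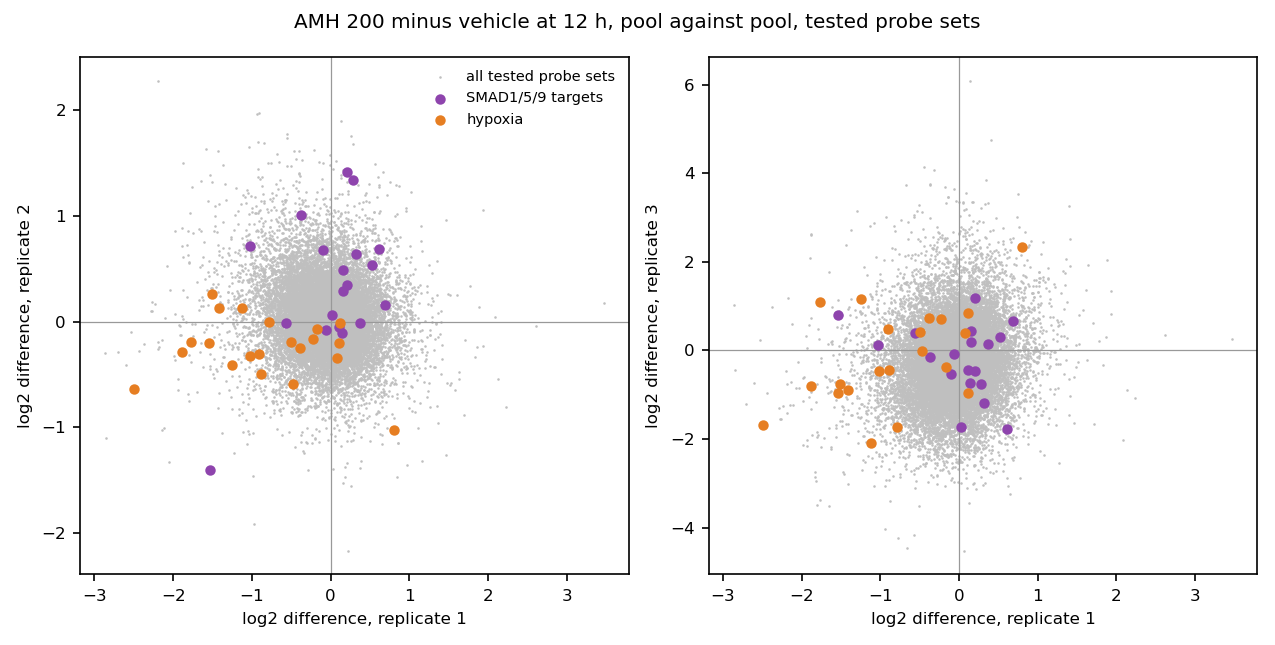
Log2 differences (AMH 200 ng/mL minus vehicle, 12 h) of replicate 1 on the horizontal axis against replicate 2 (left) and replicate 3 (right) on the vertical axis, with 1 grey point per tested probe set, SMAD1/5/9 targets in purple and hypoxia genes in orange. The cloud of replicate 3 is taller than that of replicate 2 (SD 0.85 against 0.33; the vertical axes differ), and most hypoxia genes lie to the left of 0.

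The SMAD1/5/9 targets and the hypoxia genes are the lists shown gene by gene, singled out after their values were seen. The promoters of the 2 members of each with the smallest unadjusted p and a single promoter entry are printed with a motif marked. Whether either branch acts through these stretches was not tested. All printed promoters are the 250 bases before the annotated start in mouse build GRCm38.p6, from RefSeq, written 5′ to 3′ on the gene's strand. In the promoters of Slc16a3 (chr11:120948817-120949066, plus strand) and Egln1 (chr8:124949255-124949504, minus strand) the capitals mark ACGTG, the core of the site bound by hypoxia-inducible factors, searched on both strands.
Slc16a3: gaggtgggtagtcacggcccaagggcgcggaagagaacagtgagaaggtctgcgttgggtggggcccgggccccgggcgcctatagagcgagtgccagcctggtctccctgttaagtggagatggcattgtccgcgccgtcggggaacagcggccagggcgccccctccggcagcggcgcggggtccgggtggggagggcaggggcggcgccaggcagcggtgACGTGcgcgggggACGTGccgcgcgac
Egln1: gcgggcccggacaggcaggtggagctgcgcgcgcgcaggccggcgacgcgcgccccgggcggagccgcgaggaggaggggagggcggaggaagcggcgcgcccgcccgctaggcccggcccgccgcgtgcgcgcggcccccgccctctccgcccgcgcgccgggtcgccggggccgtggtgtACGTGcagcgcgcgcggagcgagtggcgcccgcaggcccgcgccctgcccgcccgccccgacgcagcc
In those of Smad6 (chr9:64022060-64022309, minus strand) and Id3 (chr4:136143572-136143821, plus strand) the capitals mark GGAGCC, or its reverse complement GGCTCC, a GC-rich element of BMP-responsive genes.
Smad6: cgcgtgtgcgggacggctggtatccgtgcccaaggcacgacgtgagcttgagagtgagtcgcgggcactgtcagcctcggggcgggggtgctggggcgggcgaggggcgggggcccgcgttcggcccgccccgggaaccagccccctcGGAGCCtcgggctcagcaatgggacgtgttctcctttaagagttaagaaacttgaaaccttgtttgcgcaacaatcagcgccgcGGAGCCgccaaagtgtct
Id3: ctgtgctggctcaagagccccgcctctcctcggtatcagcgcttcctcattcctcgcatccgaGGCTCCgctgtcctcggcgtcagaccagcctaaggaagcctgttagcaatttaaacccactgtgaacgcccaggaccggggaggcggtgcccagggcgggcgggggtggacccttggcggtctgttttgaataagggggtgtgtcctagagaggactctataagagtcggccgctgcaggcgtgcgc

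The capitals stand 27 and 14 bases before the start in Slc16a3, 68 in Egln1, 102 and 18 in Smad6 and 187 in Id3, counted to the motif's first base. Only the motif of a gene's own list is in capitals. The Smad6 window also holds ACGTG and the Egln1 window GGAGCC, both unmarked. ACGTG or CACGT was in the window of 14 of 19 hypoxia members (73.7%), 4 of 13 SMAD1/5/9 targets (30.8%) and 18.5% of 27025 mouse genes. GGAGCC or GGCTCC was in 9 of 13 SMAD1/5/9 targets (69.2%), but also in 13 of 19 hypoxia members (68.4%) and in 28.6% of all genes. GTCT or AGAC, the general SMAD box, was in 85.0% of all promoters and in 76.9% and 78.9% of the SMAD and hypoxia members, and GGCGCC in 10.8% of all, 46.2% of the SMAD and 26.3% of the hypoxia members. Base composition was not matched, GGAGCC was chosen for display after GTCT was seen to be so common, and a match is not evidence that a factor binds.

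Of the SMAD1/5/9 targets, both inhibitory SMADs and Id1, Id2 and Id3 had higher signals with AMH in every pool, while the median of the list was near 0. Of 25 listed genes, 19 were tested; 10 were higher on average (42.7% of all genes were) and 9 lower, with a median of 0.01 against -0.06 over all genes, and 0 passed the adjusted threshold. Higher in 3 of 3 pools were 5 of the 19 (26.3%, against 9.5% of all genes): Smad6, Smad7, Id3, Id1 and Id2. Higher in both replicates 1 and 2 were 10 of 19, against 24.3% of all genes. The medians within the pools were 0.15, 0.35 and -0.09, so replicate 3 had the lowest; without it the median was 0.28, and without replicate 2 it was -0.16.

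Smad6, which encodes an inhibitory SMAD that dampens BMP-type receptors, had signals of 83.0, 118 and 95.4 in vehicle and 98.4, 342 and 236 with AMH. The AMH signal exceeded its vehicle partner by 0.21, 1.41 and 1.18 log2 units, and replicate 1, at the lowest difference, left its AMH signal below the vehicle signal of replicate 2, so the groups overlapped. The mean difference was 0.93 (SE 0.33). Smad7, the inhibitory SMAD that acts on the TGF-beta side too, stood at 216, 420.2 and 237 in vehicle and 359, 471 and 385 with AMH. Its vehicle signal in replicate 2 was above the AMH signals of both other pools, and within the pools AMH was higher each time, by 0.50 on average (SE 0.21); another probe set of the gene gave 0.71 (SE 0.25).

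Id3, a dominant-negative helix-loop-helix factor and a classic BMP target, had signals of 785, 1007 and 1247 in vehicle and 1138, 1472 and 1553 with AMH. The step was similar in the pools (0.53, 0.54 and 0.31) although the pools' own levels differed enough for the groups to overlap, and the mean difference was 0.46 (SE 0.17). Id1, its close relative, read 367, 280.4 and 465 in vehicle and 410.3, 345 and 638 with AMH. All its steps were upward and small, 0.15, 0.29 and 0.45, with a mean of 0.29 (SE 0.19). Id2 differed by 0.28 (SE 0.21) with steps of 0.16, 0.48 and 0.20, but its other tested probe set gave -0.41, 0.67 and 0.35, so its direction in replicate 1 depended on the probe set. Id4 was lower in replicates 1 and 3 and higher by 1.01 in replicate 2, and its other probe set gave 0.08 in replicate 3.

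**Figure D2:**
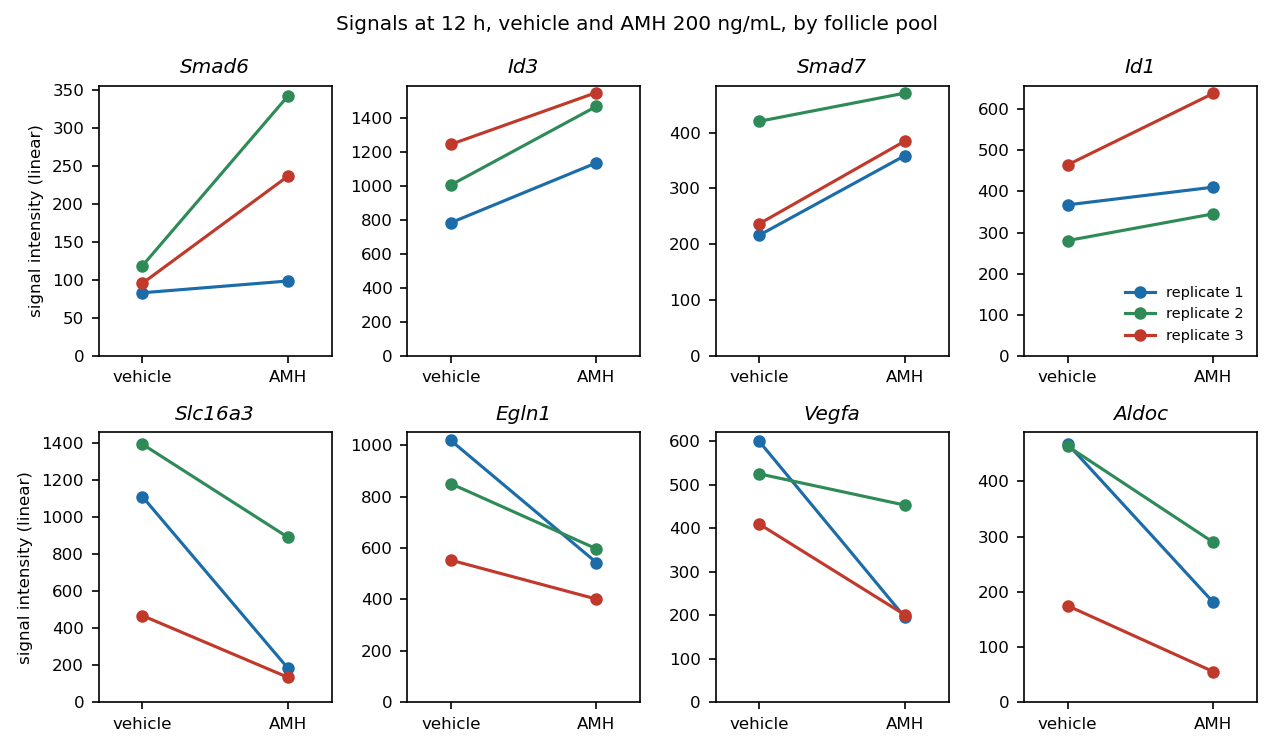
Deposited signal intensity (linear axis from 0) on the vehicle and AMH array of each pool for 4 SMAD1/5/9 targets (top) and for Slc16a3, Egln1, Vegfa and Aldoc (bottom), chosen after their values were seen; a line joins the 2 arrays of a pool and there are no error bars. All lines of the upper panels slope up and all of the lower panels slope down, from pool levels that differ.

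Other targets split between the pools. Atoh8, a helix-loop-helix factor, had differences of 0.28, 1.34 and -0.75, and Gata2, a zinc-finger factor, 0.61, 0.69 and -1.77. Bambi, a pseudoreceptor that blocks BMP and TGF-beta signals, had -0.10, 0.68 and -0.54, and Hey1, 0.32, 0.64 and -1.18. Gata2, Hey1, Bmper (mean -0.55, replicate 3 -1.73) and Hey2 are also expressed by endothelial cells, whose summed markers were 8798 on the vehicle and 2943 on the AMH array of replicate 3; the part of that shift in these values was not tested. Grem1, a secreted BMP antagonist made by cumulus cells, was lower in replicates 1 and 2 and higher in replicate 3 (-1.54, -1.41 and 0.80). Skil, a SMAD corepressor, was the 1 member lower in 3 of 3 pools, at -0.07 (SE 0.16, replicate 3 at -0.09), and the ubiquitin ligases Smurf1 and Smurf2 had 0.03 (SE 0.27, replicate 3 at -0.47) and -0.23 (SE 0.21, replicate 3 at -0.73).

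**Figure D3:**
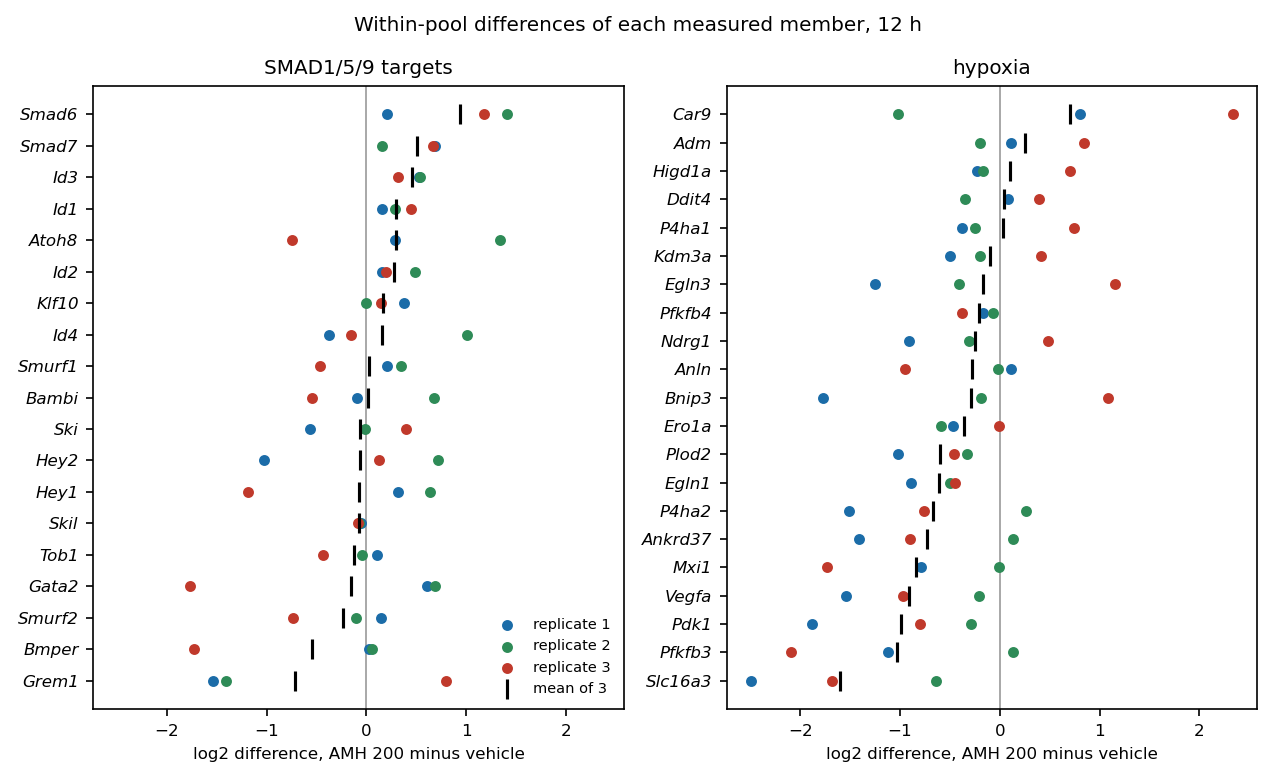
Log2 difference (AMH 200 ng/mL minus vehicle, horizontal axis) of every tested SMAD1/5/9 target (left, 19 genes) and hypoxia gene (right, 21 genes), with 1 dot per pool and a bar at the mean of 3. Smad6, Smad7, Id3, Id1 and Id2 have all dots to the right of 0, and Slc16a3, Pdk1, Vegfa, Egln1 and Plod2 are among those with all dots to the left.

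The listed AMH and BMP signalling components showed no common direction. Of 23 listed ligands, receptors and SMADs, 20 were tested, 10 higher and 10 lower, with a median of -0.0038. The list also holds the oocyte ligands Gdf9 and Bmp15, which do not carry the AMH signal. Higher in 3 of 3 pools were 2 members, Gdf9 among them (10%, against 9.5% of all genes), and lower 0. Among the ligands, Amh itself had signals of 76.3, 221 and 12.4 in vehicle and 76.6, 111 and 1.54 with AMH. The signals of replicate 1 were nearly equal and those of the others were lower with AMH. Both signals of replicate 3 were below the median signals of their arrays, 23.1 and 18.0, and so carry little information on direction. The mean difference was -0.53 (SE 0.33), within 2 standard errors of 0. Gdf9 was higher in each pool, by 0.35 (SE 0.20), although its replicate 3 signals were far below those of the other pools, and Bmp15, its oocyte partner, had 0.78, -0.16 and -0.33.

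Of the receptors, Amhr2 read 855, 1391 and 543 in vehicle and 725, 1451 and 446 with AMH. The groups overlapped and the mean difference was -0.15 (SE 0.17). The type I receptors that AMH can use stood at 0.32 (SE 0.24, replicate 3 at 0.95) for Bmpr1a, 0.21 (SE 0.19, replicate 3 at 0.25) for Acvr1 and 0.27 (SE 0.39, replicate 3 at 1.37) for Bmpr1b; Acvr1 was the other member higher in 3 of 3 pools. Bmpr2, the BMP type II receptor, differed by -0.14 (SE 0.18, replicate 3 at 0.14). The transducers Smad1, Smad5 and Smad4 had -0.25 (SE 0.25, replicate 3 at -0.95), -0.10 (SE 0.19, replicate 3 at -0.28) and 0.06 (SE 0.18, replicate 3 at 0.28).

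On the neighbouring SMAD2/3 branch, 12 of 15 tested members were lower on average and 3 higher, with a median of -0.16, which was 0.02 without replicate 3 and -0.41 without replicate 2. Inhbb, which encodes the inhibin and activin beta B subunit of granulosa cells, had signals of 417, 431 and 554 in vehicle and 108, 646 and 34.8 with AMH. It was far lower with AMH in replicates 1 and 3 and higher in replicate 2, for a mean of -1.58 (SE 0.63); its other probe set gave -0.66 (SE 0.37). Inha, the shared inhibin alpha subunit, was lower in 3 of 3 pools at -0.39 (SE 0.19, replicate 3 at -0.64), and so were Tgfb1 at -0.38 (SE 0.18, replicate 3 at -0.62), the receptor Tgfbr1 at -0.35 (SE 0.18, replicate 3 at -0.58) and Smad3 at -0.16 (SE 0.17, replicate 3 at -0.38); 4 of 15 is 26.7%, against 13.1% of all genes. Inhba, the beta A subunit, differed in sign between the pools (-1.53, -0.42 and 1.13). Ccn2, a matricellular protein induced by TGF-beta and by YAP, was the 1 member higher in 3 of 3, at 0.58 (SE 0.27, replicate 3 at 0.91).

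The hypoxia genes, which hypoxia-inducible factors switch on when oxygen is short, were mostly lower with AMH in replicates 1 and 2. Of 23 listed, 21 were tested; 16 were lower on average (57.3% of all genes were), the median was -0.29 against -0.06 over all genes, and 0 passed the adjusted threshold. The pools' medians were -0.89, -0.21 and -0.38, where those of all genes were 0.01, 0.0073 and -0.20. In replicate 3, 9 members were higher and 12 lower, and 40.1% of all genes were higher there. In replicate 1, with the lowest median, the endothelial markers summed to 2960 with vehicle and 2572 with AMH and the oocyte markers to 9024 and 11556; their part in these values was not tested. Lower in 3 of 3 pools were 8 members (38.1%, against 13.1% of all genes) and higher 0; lower in both replicates 1 and 2 were 14 of 21, against 21.8% of all genes. The median ran from -0.53 to -0.25 with 1 replicate left out, the former without replicate 3 and the latter without replicate 1, and was -0.18 with median centring and -0.36 with quantile normalization.

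Slc16a3, the lactate exporter MCT4, had signals of 1109, 1392 and 468 in vehicle and 183, 889.5 and 135 with AMH. Each AMH signal was below its vehicle partner, and the AMH signal of replicate 2 stayed above the vehicle signal of replicate 3, so the groups overlapped. The mean difference was -1.61 (SE 0.32). Vegfa, the vessel growth factor, read 599, 525 and 409 in vehicle and 195, 453 and 201 with AMH. Its difference was smallest in replicate 2, and the mean was -0.91 (SE 0.27), with a second probe set at -0.68 (SE 0.25). Egln1, the prolyl hydroxylase that marks HIF for degradation, read 1018, 850.0 and 553 in vehicle and 543, 597 and 401 with AMH. It differed by -0.61 (SE 0.18) in the mean and was lower in each pool, also at its other tested probe set (-1.04, -0.11 and -0.47).

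Pdk1, which holds pyruvate back from the mitochondria, stood at -0.99 (SE 0.35, replicate 3 at -0.80), and Plod2, a collagen lysyl hydroxylase, at -0.60 (SE 0.19, replicate 3 at -0.46), both lower in each pool. Mxi1, an antagonist of MYC, had -0.84 (SE 0.31, replicate 3 at -1.73) at 1 probe set and -0.11 (SE 0.26) at the other, and Pfkfb3, an activator of glycolysis, -1.03 (SE 0.43, replicate 3 at -2.09) and -0.24 (SE 0.35), so these rest on the probe set. Replicate 3 disagreed for several: Bnip3, a mitophagy receptor, had -1.77, -0.19 and 1.09, Egln3 had -1.25, -0.41 and 1.15 and Ndrg1 -0.91, -0.31 and 0.48. Car9, a carbonic anhydrase, had 0.81, -1.02 and 2.34, and Adm, the vessel peptide adrenomedullin, 0.11, -0.20 and 0.84. Outside the list, Lox and Stc1 are named here after their values were seen. Lox, a HIF target that cross-links collagen, differed by -1.27 (SE 0.42, replicate 3 at -1.42) and was lower in 3 of 3 pools. Stc1, a secreted stanniocalcin, differed by -1.03 (SE 0.42, replicate 3 at -1.87) and was higher in replicate 2.

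The glycolysis genes were split. Of 15 tested enzymes and transporters, 8 were lower and 7 higher, with a median of -0.18 that was 0.05 without replicate 1, and pool medians of -0.19, -0.08 and 0.22; 4 were lower in 3 of 3 pools (26.7%, against 13.1%). Aldoc, an aldolase isoform, had signals of 468, 464 and 175 in vehicle and 181, 289.8 and 55.7 with AMH. Each pool had a lower signal with AMH, and the mean difference was -1.12 (SE 0.26). Other enzymes were close to 0 on average. Ldha stood at 0.03 (SE 0.19, replicate 3 at 0.29), Pgk1 at 0.08 (SE 0.20, replicate 3 at 0.50) and Pgam1 at 0.00055 (SE 0.17, replicate 3 at 0.22). Hk1, a hexokinase, had -0.58 (SE 0.24, replicate 3 at -1.04) and Pfkl, a phosphofructokinase subunit, -0.73 (SE 0.28, replicate 3 at -1.18), the latter higher in replicate 2.

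Among single genes that went the same way in 3 of 3 pools, most of those named here and in the next paragraph had the smallest unadjusted p in their direction. Tmem100, Hoxd3os1 and Lrrc4c were instead taken for a large change in the pool where they changed least, and Apoa4 for its difference between times. Not every gene that met these rules is named, and none passed adjustment. On the higher side the foremost was Zfas1, a noncoding host of small nucleolar RNAs, with signals of 338, 344 and 1132 in vehicle and 1336, 731 and 2028 with AMH. The 2 vehicle signals of replicates 1 and 2 were alike and low and every AMH signal was above its partner, for a mean of 1.27 (SE 0.24). Snhg1, another such host gene, stood at 0.59 (SE 0.19, replicate 3 at 0.92), Gnl3, the nucleolar protein nucleostemin, at 0.51 (SE 0.17, replicate 3 at 0.50), and Rps25, a small-subunit ribosomal protein, at 0.68 (SE 0.22, replicate 3 at 0.44). Rras2, a RAS-related GTPase, had 0.55 (SE 0.17, replicate 3 at 0.67), Mest, an imprinted gene, 0.56 (SE 0.17, replicate 3 at 0.59), and Slc12a2, a sodium, potassium and chloride cotransporter, 0.62 (SE 0.21, replicate 3 at 0.92). Npy, a neuropeptide, had uneven steps of 1.89, 0.14 and 2.04. Tmem100, a membrane protein induced by BMP receptors in endothelium, stood at 0.73 (SE 0.31, replicate 3 at 0.50) and Hoxd3os1, an antisense transcript of the Hoxd cluster, at 0.88 (SE 0.31, replicate 3 at 1.05).

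On the lower side, beside Slc16a3, was Apoa1, the main apolipoprotein of HDL, with signals of 577, 259 and 84.1 in vehicle and 155, 147 and 10.5 with AMH. It was lower in each pool at all 4 of its tested probe sets, with a mean of -1.49 (SE 0.33). Apoa4, its neighbour in the apolipoprotein cluster, stood at -0.64 (SE 0.21, replicate 3 at -0.44), and Apobr, a receptor for apolipoprotein B, at -1.14 (SE 0.32, replicate 3 at -1.60). H2-Q10, a class I MHC gene whose family shares sequence, had -1.06 (SE 0.23, replicate 3 at -1.37). Metabolic genes included Gfpt2, of the hexosamine pathway, at -0.99 (SE 0.23, replicate 3 at -1.59) and Acss2, which makes acetyl-CoA from acetate, at -0.91 (SE 0.23, replicate 3 at -1.52). Crispld2, a secreted protein, had -0.93 (SE 0.27, replicate 3 at -0.95), Sfrp2, a secreted WNT antagonist, -0.996 (SE 0.29, replicate 3 at -1.60) and Hephl1, a copper ferroxidase, -1.30 (SE 0.35, replicate 3 at -0.72). Mpp2, a scaffold protein, had steps of -1.07, -0.93 and -1.12, beside Lrrc4c, at -0.94, -0.90 and -0.93. How even these steps look depends on the pseudocount, as both genes were dim in replicate 3. There Mpp2 read 63.5 with vehicle and 20.5 with AMH, and Lrrc4c 30.4 and 8.34. The median signal of that AMH array was 18.0. With pseudocounts of 1 and 50 the mean was -1.30 and -0.74 for Mpp2 and -1.37 and -0.57 for Lrrc4c.

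Of 20 immediate early genes 16 were higher on average, with a median of 0.18, pool medians of 0.19, 0.05 and 0.49, and 6 higher in 3 of 3 pools (30%, against 9.5%). Fosl1, an AP-1 subunit, read 372, 396 and 893 in vehicle and 764, 473 and 1849.7 with AMH. Its steps were near 1 log2 unit in replicates 1 and 3 and 0.25 in replicate 2; its other probe set gave 1.299, 0.20 and 0.32. Myc stood at 0.46 (SE 0.19, replicate 3 at 0.80) and Egr2 at 0.45 (SE 0.23, replicate 3 at 0.21), both higher in 3 of 3, while Fos, Jun and Egr1 had 0.24 (SE 0.21, replicate 3 at 0.51), 0.06 (SE 0.23, replicate 3 at 0.47) and 0.08 (SE 0.17, replicate 3 at -0.01). Of 16 YAP/TEAD targets 13 were higher, with a median of 0.16 and pool medians of 0.23, 0.01 and 0.51; Ajuba, an adaptor protein, stood at 0.62 (SE 0.24, replicate 3 at 0.94).

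Ribosomal protein genes were higher on average for 29 of 32, with a median of 0.34, but the pools gave 0.23, -0.04 and 0.81 and quantile normalization brought the median to 0.03. Oxidative phosphorylation genes were higher for 32 of 38 (median 0.17, 0.0037 after quantile normalization), with pool medians of 0.05, 0.0099 and 0.53. Heat shock genes were higher for 14 of 16 (median 0.22, 0.06 after quantile normalization), with pool medians of 0.29, -0.11 and 0.53. In replicate 2, 12 of the 16 were lower. Cryab stood at 0.50 (SE 0.19, replicate 3 at 0.71) and Bag3 at 0.59 (SE 0.26, replicate 3 at 1.26). In these 3 lists replicate 3 had the largest median and replicate 2 the smallest, and the poly-A spike and surface epithelium signals were highest on the AMH array of replicate 3; their part in these values was not tested.

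**Figure D4:**
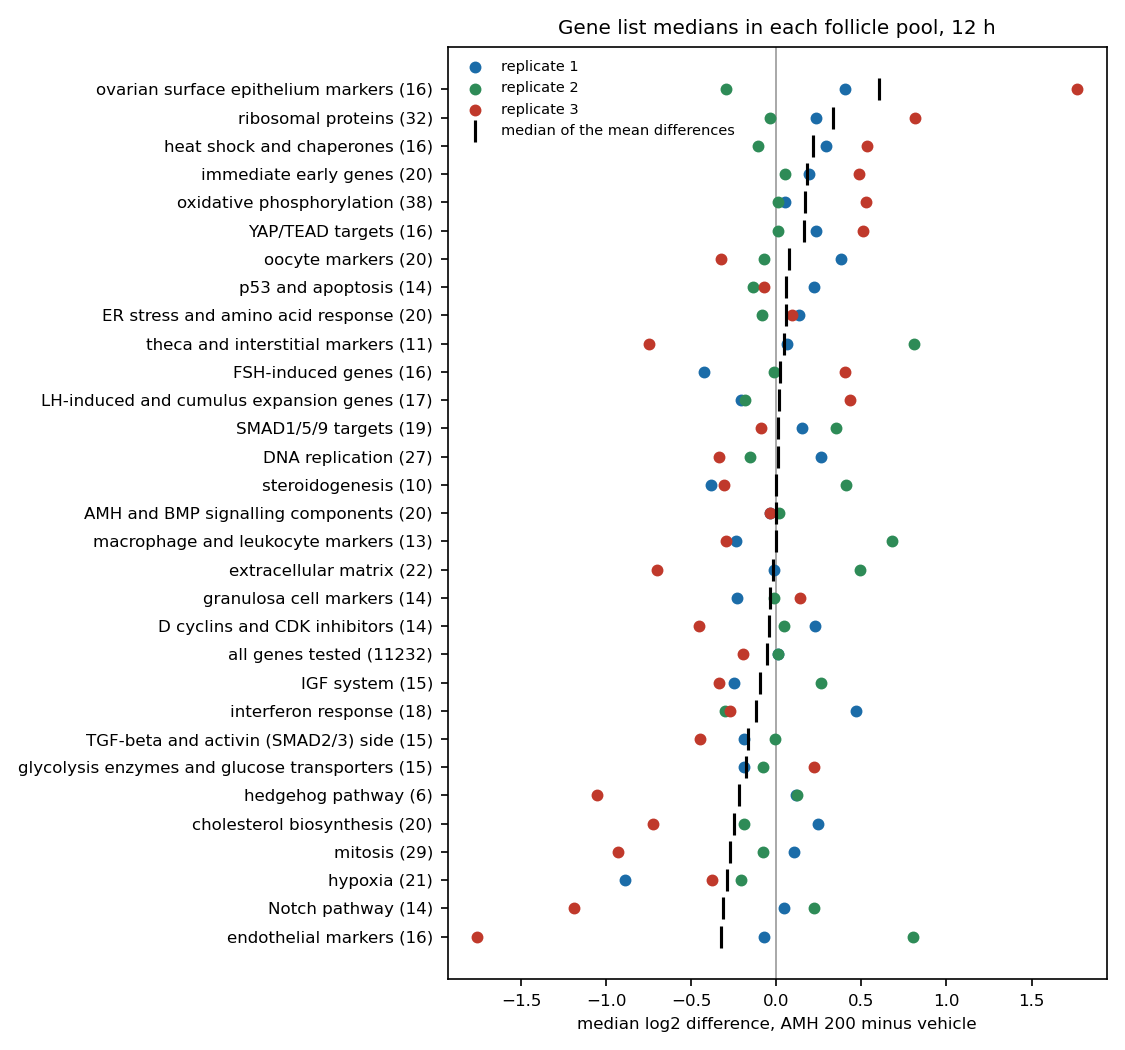
Median log2 difference (AMH 200 ng/mL minus vehicle, horizontal axis) of each gene list, with its number of tested genes in brackets, in each pool (dots) and for the mean of the pools (bar). Replicate 3 lies farthest from 0 in many lists, at 1.77 for the surface epithelium and -1.76 for the endothelial markers, while replicate 1 holds the lowest hypoxia median, -0.89.

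The follicle's own functions showed no shared direction over the 3 pools. Of the 4 lists concerned, the 10 steroidogenic genes had a median of -0.00014, with pool medians of -0.38, 0.41 and -0.31 that cancelled, and of -0.49 without replicate 2. The 17 genes that LH induces in cumulus expansion had 0.02, with pool medians of -0.21, -0.19 and 0.43. The median was 0.02 for 16 FSH-induced genes, with -0.43, -0.01 and 0.41 in the pools, and -0.04 for 14 markers of granulosa cells, with -0.23, -0.01 and 0.14. Among FSH-induced genes Akap12, a protein kinase A anchor, had 0.51 (SE 0.21, replicate 3 at 0.67) and was higher in 3 of 3 pools, while Prkar2b, a kinase A regulatory subunit, had -0.60 (SE 0.28, replicate 3 at -1.11). Of the LH-induced genes 13 were lower with AMH in replicate 1, 12 in replicate 2 and 5 in replicate 3. In those pools 51.4%, 51.1% and 40.1% of all genes were higher. Lower in both replicates 1 and 2 were 10 of the 17, against 21.8% of all genes, and 2 were higher in both. The LH median without replicate 3 was -0.26. Lower in both were also 7 of 16 FSH-induced genes, 6 of 14 granulosa markers and 0 of 10 steroidogenic genes. Ptx3 and Vcan, which build the expanded cumulus matrix, had -1.03, -1.07 and -0.08 and -0.55, -0.55 and 0.09, and Tnfaip6, which links that matrix, -1.05, -0.78 and 1.34. Cyp11a1 and Star, at the start of steroid synthesis, were higher with AMH in replicate 2 and lower in replicates 1 and 3, with means of 0.14 (SE 0.38, replicate 3 at -0.32) and 0.09 (SE 0.32, replicate 3 at -0.30).

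Cyp17a1, the androgen-making enzyme of theca cells, had signals of 40.0, 21.7 and 737 in vehicle and 42.6, 12.0 and 16.8 with AMH. Its vehicle signal in replicate 3 stood above all others and its AMH partner was low, so the mean of -1.63 (SE 0.79) comes mainly from that pool. In the IGF system Igfbp3, a binding protein, was lower in replicates 1 and 3 and higher in replicate 2 (-1.62, 0.61 and -2.17), and Igf1 was higher in each pool, at 0.52 (SE 0.24, replicate 3 at 0.07). Igf2 had 1.35, 0.57 and -0.21.

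Marker lists of other cell types differed in sign between the pools. All 16 surface epithelium markers were higher on average, with a median of 0.60, but the pools gave 0.40, -0.30 and 1.77 and without replicate 3 the median was -0.03; Upk3b, a mesothelial uroplakin, had 0.83, -0.25 and 1.93 and Krt19, a keratin, 0.65, -0.75 and 1.74. Of 16 endothelial markers 14 were lower, with medians of -0.07, 0.80 and -1.76 and 0.17 without replicate 3; Pecam1 had -0.56, 0.36 and -3.10. Of 13 leukocyte markers 7 were lower, with pool medians of -0.24, 0.68 and -0.29 and with Tyrobp, an adaptor of myeloid cells, higher in 3 of 3 at 0.54 (SE 0.29, replicate 3 at 0.80). Outside the markers, of 29 mitosis genes 24 were lower, at 0.10, -0.08 and -0.93, and 0.01 without replicate 3, and Notch (14 tested), hedgehog (6) and cholesterol biosynthesis genes (20) were lower in the median at -0.31, -0.22 and -0.25 but at 0.07, 0.12 and 0.04 without replicate 3. Interferon genes were mixed: Ifit1, an interferon-induced RNA-binding protein, had 3.47, 0.18 and 0.27 and Bst2, tetherin, -0.36, -0.30 and -0.89. None of 4 red blood cell markers on the array was bright enough to be tested.

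In the remaining lists the 3-pool median lay between -0.12 and 0.07, and the pools differed in sign. For 11 theca and interstitial markers it was 0.04, with pool medians of 0.07, 0.81 and -0.75, so that it was 0.42 without replicate 3 and -0.32 without replicate 2. For 22 extracellular matrix genes it was -0.02, with 0.49 in replicate 2 and -0.70 in replicate 3. Of 27 DNA replication genes 23 were higher with AMH in replicate 1 and 23 lower in replicate 2, and the pool medians were 0.26, -0.16 and -0.34. The 20 oocyte markers had 0.38, -0.07 and -0.32, the 18 interferon genes 0.47, -0.30 and -0.27 and the 15 IGF system genes -0.25, 0.26 and -0.34. The 14 D cyclins and CDK inhibitors had 0.23, 0.05 and -0.45, the 14 p53 and apoptosis genes 0.22, -0.13 and -0.07, and the 20 genes of the ER stress and amino acid response 0.13, -0.09 and 0.09. Atf4, the transcription factor of the amino acid response, and its target Atf5 were higher in 3 of 3 pools, at 0.31 (SE 0.16, replicate 3 at 0.34) and 0.28 (SE 0.17, replicate 3 at 0.14), while Sdf2l1, an ER-stress chaperone component, was lower in 3 of 3 at -0.62 (SE 0.28, replicate 3 at -1.11).

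Whether the response at 12 h differed from that to the same dose at 24 h was tested with an interaction over 12 arrays and 6 pools, the 2 times being separate experiments, each with its own vehicle. In limma's test 0 of 22518 probe sets (0.0%) passed an adjusted p of 0.05, with a smallest adjusted p of 0.751, and 1048 (4.65%) had an unadjusted p under 0.05. The genes named here are the 5 in each direction with the smallest unadjusted p. Fosl1 stood at 0.76 (0.63 without replicate 3) at 12 h and -0.69 at 24 h, a difference between times of 1.45 (SE 0.29), and Rras2 at 0.55 (0.49 without replicate 3) and -0.34. Ccl2, a monocyte chemokine, had 0.51 (0.70 without replicate 3) at 12 h and -1.09 at 24 h, and Tyrobp 0.54 (0.41 without replicate 3) and -0.99. Saa3, an acute-phase protein, had 0.12, 0.38 and 1.54 in the pools at 12 h, so that its mean of 0.68 (0.25 without replicate 3) rests mostly on replicate 3, and -1.76 at 24 h. In the other direction Aldoc had -1.12 (-0.97 without replicate 3) at 12 h and -0.10 at 24 h, and Apoa4 -0.64 (-0.74 without replicate 3) and 0.27. Wdr7 had -0.76 (-0.68 without replicate 3) and 0.31, Mlf1 -0.60 (-0.38 without replicate 3) and 0.75, and Foxp2, a forkhead factor, -0.90 (-0.51 without replicate 3) and 0.43. Zfas1 stood at -0.01 at 24 h.

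Side by side, the SMAD1/5/9 targets had a median of 0.01 at 12 h and 0.14 at 24 h, and the hypoxia genes -0.29 and -0.20. Smad6 had 0.93 and 0.64, Id3 0.46 and 0.36, and Slc16a3 -1.61 and -0.46. The surface epithelium markers had medians of 0.60 and -0.59, and the leukocyte markers -0.0044 and -0.59.

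**Figure D5:**
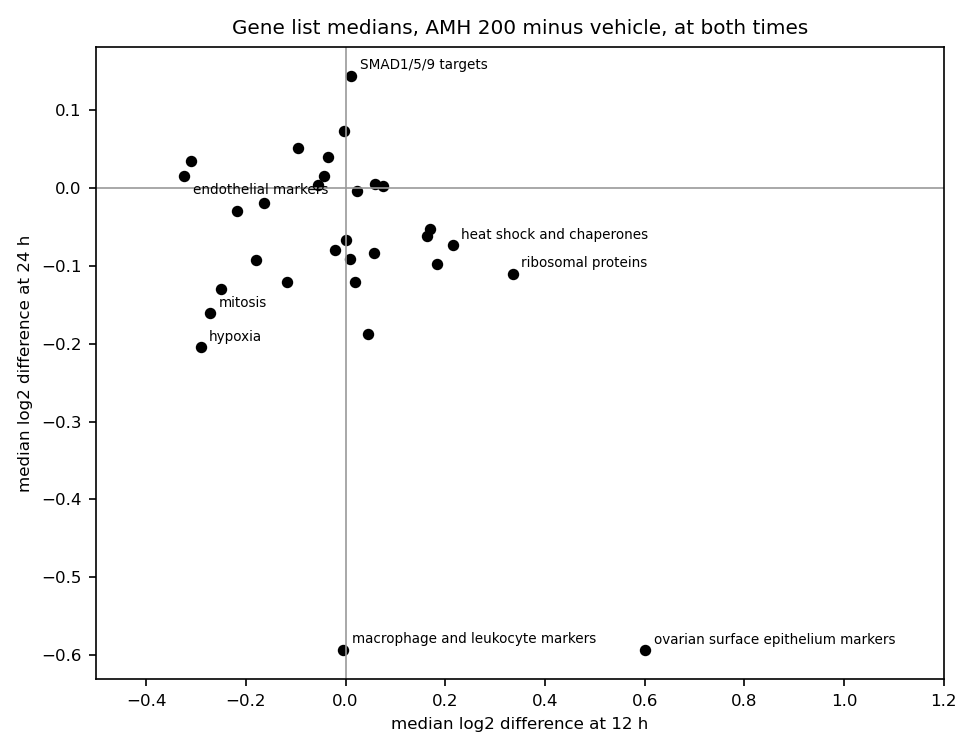
Median log2 difference between AMH 200 ng/mL and vehicle of each gene list at 12 h (horizontal axis) and 24 h (vertical axis), 1 point per list, 8 of them named. Hypoxia lies below 0 on both axes (-0.29 and -0.20), ribosomal proteins at 0.34 and -0.11, and the surface epithelium list at 0.60 and -0.59.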

How the data were processed

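Biotin-labelled cDNA of 6 follicle RNA samples was read on Affymetrix arrays. The authors deposited MAS5 signal intensity values, per the submitters' processing notes, which give no version; every array has a 2% trimmed mean of 150.0, so they were scaled to a common mean. Detection calls were not used here. Of 45101 probe sets, 64 controls were left out; of the other 45037, 34945 have 1 gene symbol in the platform annotation, 932 several and 9160 none, and only those with 1 name a gene.

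From these values log2(signal + 16) was computed, and probe sets above the median (50th percentile) of the mean over the 6 arrays, 22518 in all, were tested in limma 3.58.1 (R 4.3.3; lmFit with the pool as a block, 2 residual degrees of freedom, eBayes with an intensity trend; two-sided; Benjamini-Hochberg, threshold 0.05). The fit was tested on simulated data. Scaling can hide a global shift, and the precision is limited by 3 arrays per group; depth has no counterpart on arrays. The p-values measure how the AMH minus vehicle difference varied from pool to pool, with the noise of the arrays in it. Differences in level between the pools are taken out by the block.

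Pairing comes from the growth protocol, under which each pool was divided over the doses. Deviations from the group means correlated at 0.35, 0.38 and 0.38 between arrays of the same number and at -0.41 to 0.12 between others.

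Genes named are those past the threshold or, as too few passed, the 12 each way with the smallest unadjusted p among genes with 1 direction in 3 pools, the 8 each way with the largest minimum step, members of the SMAD1/5/9 and AMH lists, up to 6 of each other list with the smallest unadjusted p or with 1 direction in 3 pools, and 5 each way for the interaction; a few other list members and second probe sets were added after their values were seen. Members and lists were chosen with earlier results of these data known, so lists are described by counts and medians. Alternatives were the pseudocount, scaling, filter, block, trend, array weights, arrays in the fit, the probe set rule and each replicate left out. Promoters came from RefSeq on GRCm38.p6.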

Additional observations from a re-analysis of the deposited data

How the results depend on the processing

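The count of 0 probe sets past the threshold was also 0 with pseudocounts of 1 and 50, quantile normalization, median centring, no filter, a filter at the 75th percentile, no trend, and all 18 arrays or all but 1 noisy array at 50 ng/mL in the fit. Without the replicate block it was 0 as well, with 89 probe sets at an unadjusted p under 0.05 against 469 with it. The shortfall of such probe sets against the 1125.9 given by chance did not hold under every setting. In limma's test there were 530 with all 18 arrays but 2565 with all but the noisy one. With array weights there were 5282, and without replicate 2 there were 2088. Estimated array weights gave 928 probe sets past the threshold. Leaving out 1 replicate gave 0 to 121, each of those fits with 1 residual degree of freedom. The count of the difference between times was 0 under each alternative run. The median of the SMAD1/5/9 targets ran from -0.16 to 0.28 with 1 replicate left out. The hypoxia median was -0.77 with array weights and below 0 under each alternative run. Ifit3, at -0.04, stood at 1.31 with array weights, which lean on replicate 1, where its difference was 1.71.

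Median centring moved the median of all genes from -0.06 to 0.06, so differences of that size have no settled sign. Of 31 medians, those of all genes included, 14 changed sign without replicate 3, 6 without replicate 1, 3 without replicate 2, 10 with array weights, 8 with median centring, 5 with the 75th percentile filter, 4 with the mean over probe sets, 3 with quantile normalization and 2 with a pseudocount of 1. Which of the pools is the more typical was not tested, and signals near the floor, such as those of oocyte genes in replicate 3, carry little information on direction.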
